A study of Arabidopsis thaliana with 12 samples.

Results

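The grandifolia mutants of Arabidopsis thaliana, 3 lines named gra1-D, gra2-D and gra3-D, formed 1 pooled group set against wild type, and the genes outside the raised end of chromosome 4 were described by function. The rule took every locus on the array outside AT4G31170 to AT4G40090, which left 20014 of 20777 loci, with 763 in the excluded stretch. The bounds of that stretch came from an earlier analysis of the same arrays. All groups were of the Col-0 ecotype. Wild type carried no grandifolia mutation, and each line carried the dominant mutation of its name, and the title of the series speaks of a duplicated chromosome part. Plants were kept at 22 °C on MS medium, in days with 16 h light and 8 h dark, and at growth stage 1.03 RNA was taken from their vegetative part. Each of the 4 groups held 3 biological replicates with 1 ATH1 array each, so 9 mutant arrays met 3 wild-type arrays. The sources used here do not say how many independent plants founded each line.

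An extra copy of a chromosome segment raises the dose of the genes it carries, and products of those genes can alter transcripts of genes elsewhere, which are then called trans effects. Trans effects can lie on any chromosome and go in either direction. Grandifolia mutants are known for enlarged leaves, an organ whose size follows from cell division, controlled in part by D-type cyclins, and from later cell expansion.

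The arrays were alike in scale, with medians of the log2 values between 6.36 and 6.43. Over loci, arrays of the same group correlated at 0.995 to 0.997 and arrays of different groups at 0.991 to 0.998. The labelled tissue matched its markers: 20 photosynthesis genes had a median log2 level of 13.9, while 12 root, 8 flower and 11 seed markers had median levels of 4.27, 3.85 and 3.76, under the value of 5 that is close to the array background. In the excluded stretch 531 of 763 loci were higher in the pooled lines and 1 was lower, AT4G31210. That locus was named after its values were seen. Its log2 change differed by line, with -0.51 for gra1-D, 0.28 for gra2-D and -0.69 for gra3-D, and its pooled call (-0.31, adjusted p = 0.0455 by limma) was lost without any 1 of 8 arrays (all but those of gra2-D and gra1-D replicate 3), with adjusted p up to 0.202, and under 8 of the other settings (up to 0.578).

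Outside that stretch the pooled lines differed from wild type at 1906 loci, most of them by small amounts. By limma, at a Benjamini-Hochberg adjusted p under 0.05, 472 loci (2.36%) were higher and 1434 (7.16%) were lower. The median change was 1.26-fold among the higher loci (log2 0.33) and 1.24-fold among the lower ones (log2 -0.30), and the outer deciles stood at log2 0.64 and -0.53. A change of at least 1.5-fold was reached by 63 higher and 102 lower loci, and 2-fold by 13 and 17. All 9 mutant arrays lay above all 3 wild-type arrays for 308 of the 472 higher loci, and below them for 1018 of the 1434 lower loci. Over all loci such a separation held for 2.19% upward and 6.62% downward. The 3 lines share the wild-type arrays, so an error of 1 of these enters the pooled change of every line.

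The balance of higher to lower calls depended on how the arrays were centred, and calls of both directions were made under each centring. As deposited, 24.8% of the calls were higher, and the median log2 change outside the stretch was -0.014, or -0.041 over loci whose mean log2 value reached 6. With each array centred on the median of chromosomes 1, 2, 3 and 5, 654 loci were higher and 1017 lower (39.1% higher). With centring on expressed loci outside the stretch, an alternative chosen after the data were seen, 792 were higher and 878 lower (47.4% higher). Leaving out 1 wild-type array lowered the counts to 296 higher and 813 lower (WT replicate 1), 309 and 855 (WT replicate 2) or 307 and 887 (WT replicate 3). Without the line gra2-D the counts were 276 and 947.

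The share of lower calls also varied with the signal level. It was 1.31% under a mean log2 value of 5, 6.97% at 5 to 6, 8.02% at 6 to 8, 13.8% at 8 to 10, 18.4% at 10 to 12 and 8.86% at 12 or more. Higher calls made up between 0.599% and 4.41% of these classes. As a yardstick, loci from AT4G33510 to the end of chromosome 4 had median log2 changes of 0.061 under 5, 0.91 at 8 to 10 and 0.53 at 12 or more, so changes measured at both ends of the scale were smaller. Changes of dim and very bright genes may therefore be understated in these values.

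**Figure D1:**
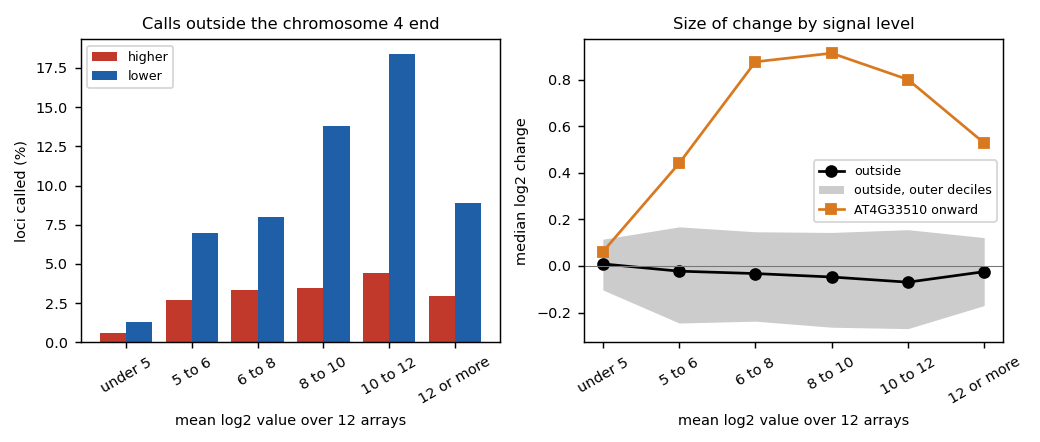
Left: share of loci outside the chromosome 4 end called higher or lower in the pooled lines (%), by mean log2 value over the 12 arrays. Right: median log2 change outside (black, grey band for the outer deciles) and from AT4G33510 onward (orange); lower calls peak at 18.4% for values of 10 to 12, where the median outside is -0.070.

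Calls were spread over the chromosomes. Between 6.47% (chromosome 4) and 8.26% (chromosome 3) of the loci of a nuclear chromosome were lower, and between 1.82% (chromosome 2) and 2.6% (chromosome 4) were higher. Of neighbouring loci in the order of their names, 14 runs of at least 3 were called in 1 direction, all of them lower. The longest held 4 loci each, AT4G15660 to AT4G15700 and AT5G61010 to AT5G61040. These runs were sought after the values were seen. Lower calls were more frequent than higher ones (1434 against 472). Whether the runs exceed what these numbers of calls give was not tested. The gene table gives no symbols to the loci of the first run, whose log2 changes lay between -0.88 and -0.24. The second holds EXO70E2, a gene of the exocyst family (-0.47), and ECT3 (-0.33).

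The 12 largest rises included those of a calcium-dependent protein kinase gene, a phosphate starvation transcript, an anthocyanin regulator and cold-response genes, beside loci that the gene table does not name. CDPK2 (AT1G35670), which encodes a calcium-dependent protein kinase, had log2 values of 4.58, 4.84 and 5.1 on the wild-type arrays and of 6.82 to 7.11 (median 6.91) on the mutant arrays. The groups did not overlap, as the choice required. Its change of 4.25-fold (log2 2.09 ± 0.094, SE, adjusted p = 3.6e-08 by limma) is a lower bound, since the wild-type mean lies close to background, and it was alike by line (2.12 for gra1-D, 2.04 for gra2-D, 2.1 for gra3-D).

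AT5G03545, which the gene table also lists as AT4 and INDUCED BY PI STARVATION 2, had values of 5.46, 5.22 and 5.77 in wild type and of 6.15 to 7.87 (median 6.83) in the lines. It rose 2.65-fold (1.41 ± 0.227, adjusted p = 0.000982). The galactinol synthase gene GolS3 (AT1G09350), which starts the synthesis of raffinose sugars, had 6.34, 7.01 and 6.72 against 7.24 to 8.2 (median 7.75) and rose 2.11-fold (1.07 ± 0.162, adjusted p = 0.000545). LTI78 (AT5G52310), also RD29A, a marker of cold and drought response, had 9.22, 9.63 and 9.73 against 10.1 to 11 (median 10.6) and rose 2.03-fold (1.02 ± 0.152, adjusted p = 0.000488). In none of these did a mutant array reach down to a wild-type array, again by the choice.

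PAP1 (AT1G56650), a MYB factor that turns on anthocyanin genes, had 4.71, 4.45 and 4.59 in wild type and 5.04 to 6.54 (median 5.61) in the lines. Its rise of 2.32-fold (1.22 ± 0.236, adjusted p = 0.00393) is a lower bound for the same reason as that of CDPK2. CIPK25 (AT5G25110), a kinase gene of the family that acts with calcineurin B-like calcium sensors, rose 2.08-fold (1.06 ± 0.077, adjusted p = 4.79e-07), from values of 5.04, 5.26 and 5.02 to 6.01 at least. The remaining 6 of the 12 have no name in the gene table: AT1G68600 (2.94-fold) and AT1G80130 (2.8-fold), AT1G52000 (2.49-fold), AT1G27030 (2.19-fold), AT3G05640 (2.02-fold) and AT3G53980 (1.95-fold).

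The largest falls included a gene that dropped to background in every line, secreted-protein genes and a clock-related factor. AT5G24240, which has no name in the gene table, had log2 values of 8.27, 7.85 and 8.12 in wild type and of 4.58 to 5.05 (median 4.67) in the lines. Its fall of 3.32 on the log2 scale (SE 0.0759, adjusted p = 1.98e-11, 10-fold) is a lower bound, since the mutant mean lies close to background. All 9 mutant arrays lay far below the wild-type arrays.

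ARP9 (AT5G43500), an actin-related protein gene, had 7.71, 7.63 and 7.72 in wild type and 6 to 6.36 (median 6.1) in the lines, a fall of 2.93-fold (-1.55 ± 0.072, adjusted p = 4.28e-08). The thionin gene THI2.2 (AT5G36910), whose family encodes small antimicrobial peptides, had 10.8, 10.2 and 10.6 against 8.83 to 9.4 (median 9.16) and fell 2.61-fold (-1.39 ± 0.122, adjusted p = 2.92e-06). RVE1 (AT5G17300), a MYB-like factor that links the clock to auxin, had 7.07, 6.23 and 6.36 against 4.76 to 6.11 (median 5.51) and fell 2.19-fold (-1.13 ± 0.189, adjusted p = 0.00135). For these 3 genes the groups were separate by the choice, with the narrowest gap at RVE1.

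GASA1 (AT1G75750), a gibberellin-regulated small protein gene, fell 2.1-fold (-1.07 ± 0.191, adjusted p = 0.00212), from 10.1, 9.94 and 9.74 to between 7.94 and 9.26. CDEF1 (AT4G30140), a cutin-degrading esterase gene, fell 2.17-fold (adjusted p = 0.000813), and the beta-galactosidase gene BGAL4 (AT5G56870) fell 2.13-fold (adjusted p = 0.00262). Of the loci without a name, AT2G05540 fell 4.08-fold, AT3G62950 3.32-fold (a lower bound, mutant mean close to background), AT5G01870 2.93-fold, AT3G16670 2.51-fold and AT3G05730 2.1-fold. Leaving out any 1 array or any 1 line ended none of these 24 calls, which the choice of large changes with separate groups favours. RNA was taken from whole vegetative parts, in which fewer cells of a type and less RNA per cell cannot be told apart.

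**Figure D2:**
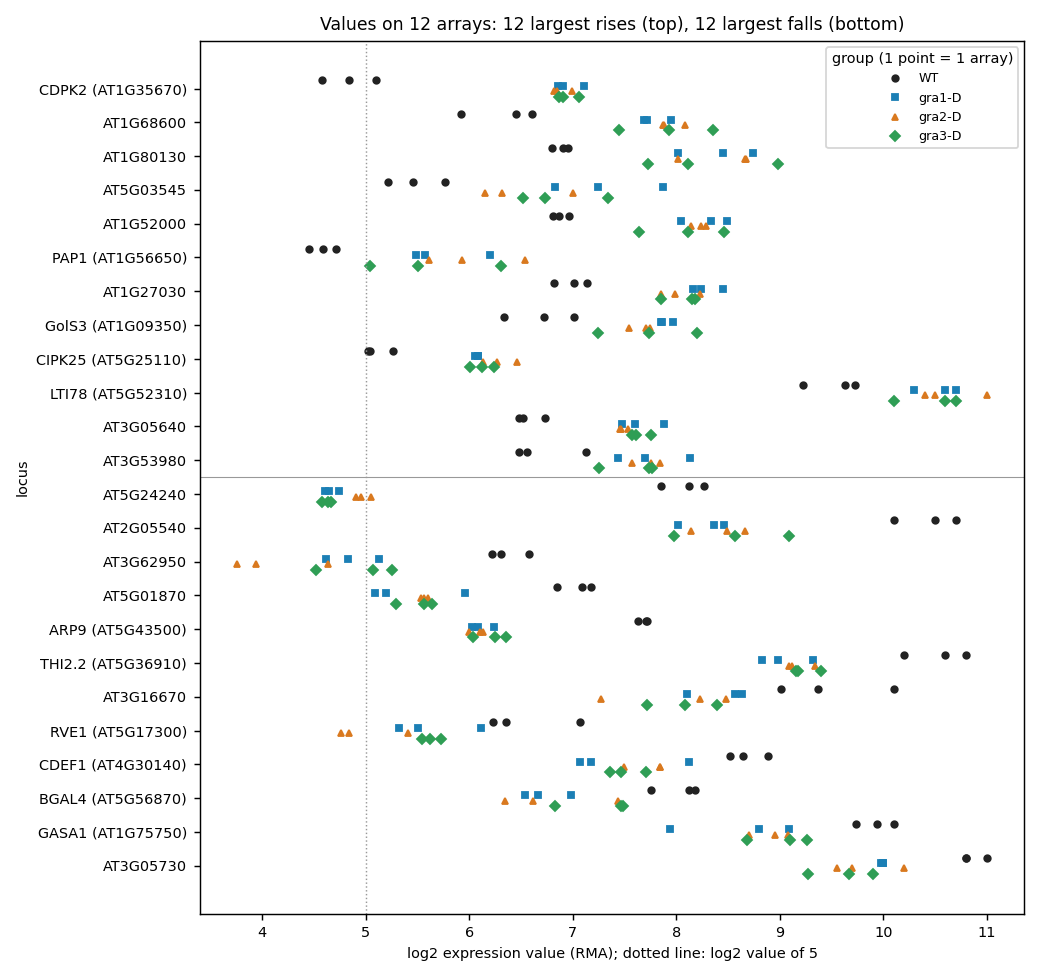
Log2 expression values (horizontal axis) on the 3 wild-type and 9 mutant arrays, 1 point per array. Rows are the 12 largest rises and the 12 largest falls outside the chromosome 4 end among called loci with separate groups. The mutant points lie on 1 side of the wild-type points by this choice, and AT5G24240 reaches the level of 5 that is close to background.

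Gene lists by function were then read against the shares of 2.36% higher and 7.16% lower over all loci outside the stretch. The 47 lists held 719 members measured outside the stretch, of which 40 were higher and 58 lower. Listed genes inside the stretch were not counted. Lists with at least 4 higher calls were those of cold response, phosphate starvation and jasmonate. Lists with at least 5 lower calls were those of cytosolic ribosomes, D-type cyclins, mitosis and cytokinin. Their median log2 levels were 11.2, 6.91, 6.3 and 6.59. The shares were not matched to signal level. Over all loci outside, 18.4% were lower at a mean log2 value of 10 to 12 and 8.02% at 6 to 8.

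**Figure D3:**
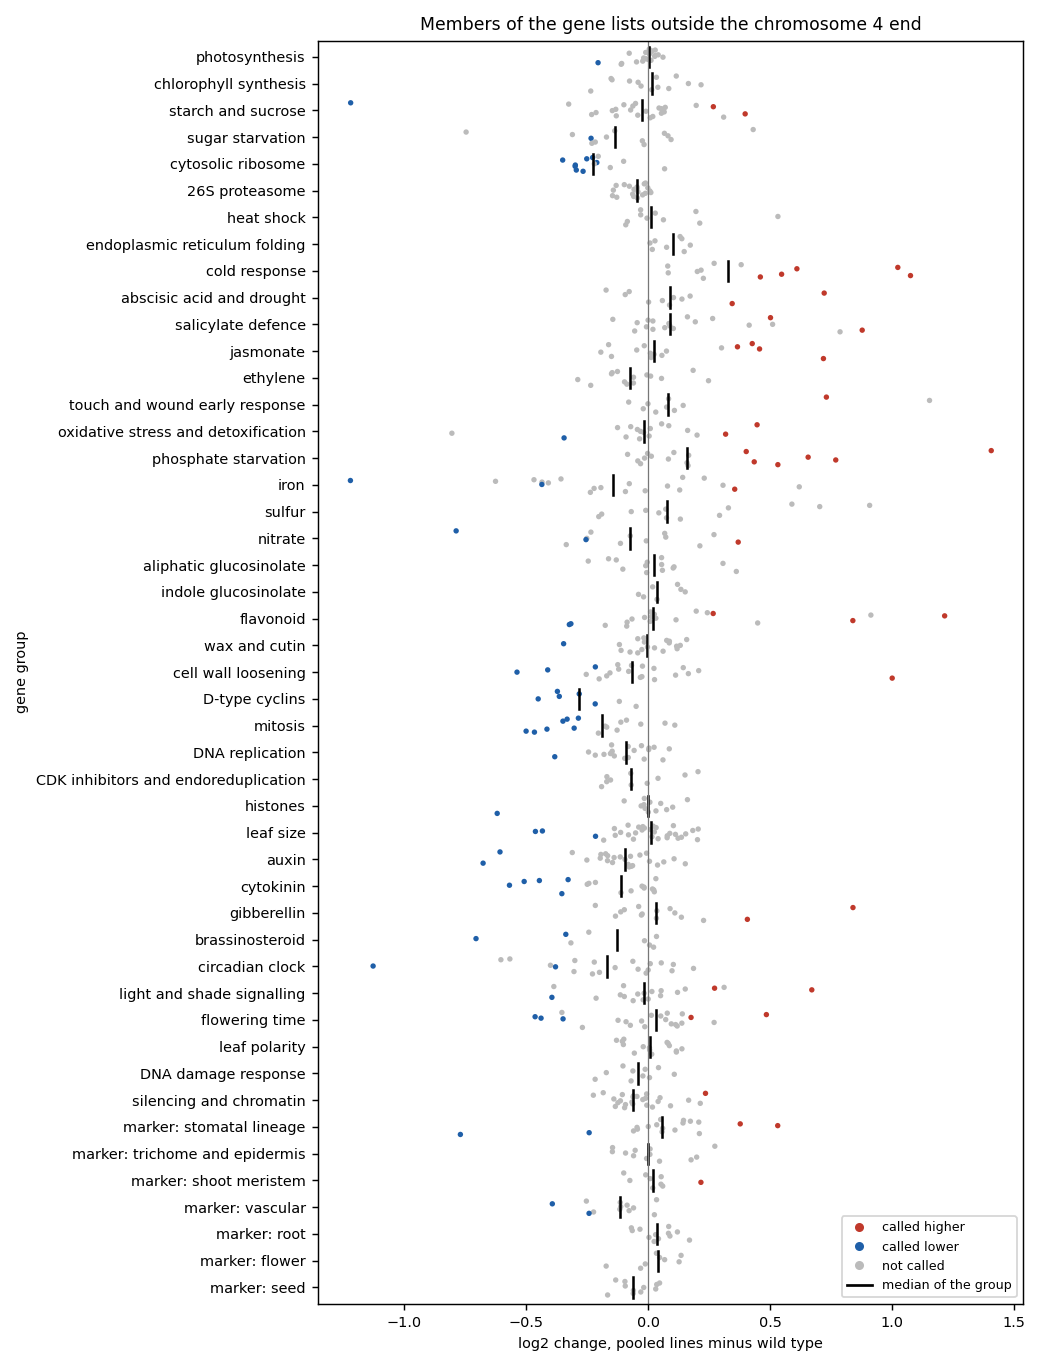
Log2 change of the pooled lines against wild type for each member of the 47 gene lists measured outside the chromosome 4 end. Members called higher are red, lower blue and not called grey, and the black bar is the median of the list. The cold response members all lie above 0 (median 0.33), and the D-type cyclins all lie below 0 (median -0.28).

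Cold-response genes stood above wild type as a list. Of 12 measured members 5 were higher and 0 lower, all 12 had changes above 0, and the median log2 change was 0.33 against -0.014 over all loci outside. Beside GolS3 and LTI78, the dehydrin gene ERD10 (AT1G20450) had 8.9, 9.1 and 9.21 in wild type and 9.51 to 10 (median 9.57) in the lines and rose 1.53-fold (0.61 ± 0.0661, adjusted p = 2.43e-05). DREB1A (AT4G25480), a factor that drives cold-regulated genes, had 6.04, 5.92 and 5.98 against 6.29 to 7 (median 6.44) and rose 1.46-fold (0.55 ± 0.129, adjusted p = 0.0137). Neither overlapped with wild type. The count of higher members was 3 without WT replicate 2, and the call of DREB1A ended without WT replicate 2 or 3 (adjusted p up to 0.0661).

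Of 11 abscisic acid and drought genes 2 were higher and 0 lower. GolS2 (AT1G56600), a drought-induced galactinol synthase gene, had 6.04, 5.38 and 6.07 against 6.08 to 7.11 (median 6.54) and rose 1.65-fold (0.72 ± 0.194, adjusted p = 0.0274), with the lowest mutant array just above the highest wild-type one. NCED3 (AT3G14440), which controls abscisic acid synthesis, had overlapping groups and a change of 0.34 ± 0.103 (adjusted p = 0.0462). The call of GolS2 ended without WT replicate 2 (0.172) or the line gra1-D (0.0552). That of NCED3 was lost without any 1 of 9 arrays (all but WT replicate 1, gra1-D replicate 3 and gra3-D replicate 1; adjusted p up to 0.242) and under 6 other settings (up to 0.175).

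Calcium signalling genes gave 2 further groups, formed from gene names after the values were seen, as were all groups by name below. Of 25 CIPK kinase genes 4 were higher and 2 lower, and of 27 calcium-dependent protein kinase genes 3 were higher and 0 lower. SIP3 (AT4G30960), also CIPK6, had 10.3, 9.95 and 10.2 against 10.5 to 11 (median 10.7) and rose 1.49-fold (0.57 ± 0.0926, adjusted p = 0.00103). CPK6 (AT2G17290), a kinase of stomatal abscisic acid signalling, had 6.37, 6.26 and 6.11 against 6.43 to 6.97 (median 6.81) and rose 1.42-fold (0.51 ± 0.0653, adjusted p = 0.000131). Both stood above wild type on all 9 arrays. CIPK15 (0.45 ± 0.114, adjusted p = 0.0201) lost its call without WT replicate 1 or 3 (up to 0.129), without the line gra2-D, and in both fits that let the spread between lines enter the error (up to 0.0981). CPK4 (0.20 ± 0.0593, adjusted p = 0.0447) lost it without any 1 of 10 arrays (all but gra1-D replicate 3 and gra2-D replicate 3; up to 0.155) and under 5 other settings (up to 0.131). Without WT replicate 3, 2 of the 25 CIPK genes were higher.

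Of 23 genes named for response to dehydration 6 were higher and 1 lower, among them ERD10 and DREB1A. DREB26 (AT1G21910), an ethylene-response-type factor gene, had a change of 0.88 ± 0.258 (adjusted p = 0.0411) with overlapping groups, and its call was lost without any 1 of 9 arrays (all but gra1-D replicate 1, gra2-D replicate 2 and gra3-D replicate 3; up to 0.202) or the line gra1-D (0.0788). The count of higher genes was 3 without any 1 wild-type array.

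Phosphate starvation genes were higher in part. Of 17 measured members 6 were higher and 0 lower, with a median log2 change of 0.16, and AT5G03545 led them. MGD2 (AT5G20410), which makes galactolipids that replace phospholipids when phosphate is short, had 5.29, 5.4 and 5.5 in wild type and 5.79 to 6.41 (median 6.1) in the lines and rose 1.58-fold (0.66 ± 0.104, adjusted p = 0.000853). PAP17 (AT3G17790), a purple acid phosphatase gene, had 7.54, 7.06 and 6.58 against 7.42 to 8.36 (median 7.72) and a change of 0.77 ± 0.215 (adjusted p = 0.0336). SRG3 (AT3G02040), also GDPD1, which releases phosphate compounds from membrane lipid breakdown products, changed by 0.53 ± 0.159 (adjusted p = 0.0456). MGD2 was separate from wild type, while PAP17 and SRG3 overlapped with it. The call of PAP17 ended without WT replicate 2, WT replicate 3 or gra1-D replicate 1 (up to 0.213) and without the line gra1-D (0.0761). That of SRG3 was lost without any 1 of 7 arrays (WT replicates 2 and 3, gra1-D replicates 1 and 2, and the 3 of gra3-D; up to 0.186) and without the line gra1-D (0.103).

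Of 22 purple acid phosphatase genes by name 3 were higher and 1 lower. Beside PAP17 these were PAP27 (0.35 ± 0.0903, adjusted p = 0.0213) and PAP8 (0.29 ± 0.0743, adjusted p = 0.0234), whose calls ended without WT replicate 1 or 3 (up to 0.146 and 0.114) and without the line gra3-D, that of PAP27 also without gra2-D. The count of higher genes was 1 without WT replicate 1 or the line gra3-D, and 0 without WT replicate 3. Of 9 glycerol phosphate acyltransferase genes, which take part in lipid and cutin or suberin synthesis, 3 were higher and 0 lower. GPAT3 (AT4G01950) had 8.4, 8.76 and 8.49 against 8.71 to 9.54 (median 9.38), a slight overlap, and rose 1.65-fold (0.72 ± 0.129, adjusted p = 0.00208). GPAT2 (AT1G02390) rose by at least 1.46-fold from a wild-type mean close to background (0.55 ± 0.118, adjusted p = 0.00754). GPAT5 lay close to background in both groups (0.25 ± 0.074, adjusted p = 0.0445), so the size of its change is uncertain, and its call was lost without any 1 of 9 arrays (all but WT replicate 2, gra1-D replicate 3 and gra2-D replicate 1; up to 0.24) and under 5 other settings (up to 0.11).

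Other nutrient lists moved little or in both directions. Of 13 nitrate genes 1 was higher (7.69%) and 2 lower (15.4%), against 2.36% and 7.16% over all loci outside. NIA1 (AT1G77760), a nitrate reductase gene, had 10.1, 9.65 and 9.77 in wild type and 8.42 to 9.79 (median 8.98) in the lines and fell 1.73-fold (-0.79 ± 0.169, adjusted p = 0.00777). UPM1 (AT5G40850), which makes siroheme for nitrite reduction, rose 1.29-fold (0.37 ± 0.0724, adjusted p = 0.0043) with no overlap. ASN2, an asparagine synthetase gene, changed by -0.26 ± 0.0703 (adjusted p = 0.031). The call of NIA1 ended without WT replicate 1 (0.0609), and that of ASN2 without any 1 wild-type array (up to 0.129) and under 5 other settings, both centrings among them (up to 0.111). With centring on expressed loci 3 nitrate genes were higher and 1 lower.

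Of 20 iron genes 1 was higher (5%) and 2 lower (10%), against 2.36% and 7.16% over all loci outside. The iron deficiency factor gene bHLH39 (AT3G56980) had 9.87, 8.71 and 9.02 against 6.88 to 9.37 (median 8.01), so the groups overlapped, and changed by -1.22 ± 0.326 (adjusted p = 0.0267), with -0.50 for gra1-D, -1.23 for gra2-D and -1.94 for gra3-D. FRO3, a ferric reductase gene (-0.44 ± 0.102, adjusted p = 0.0135), and YSL1, a metal-nicotianamine transporter gene (0.35 ± 0.0965, adjusted p = 0.0293), also overlapped with wild type. The calls of all 3 ended without WT replicate 1 or 3 (adjusted p up to 0.169, 0.0899 and 0.167), without the line gra3-D and with the 9 mutant arrays as 1 group, that of YSL1 also without gra2-D and, like that of bHLH39, with array weights, and those of bHLH39 and FRO3 also with line as a random block (up to 0.123, 0.128 and 0.0936). Without WT replicate 2 the list held 5 lower genes.

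Jasmonate genes included 4 higher members of 15 and 0 lower ones. CORI3 (AT4G23600), a jasmonate-responsive gene, had 10, 9.63 and 9.77 against 10.1 to 10.8 (median 10.6) and rose 1.64-fold (0.72 ± 0.115, adjusted p = 0.000922). The biosynthesis genes LOX2 (AT3G45140) and AOS (AT5G42650) rose 1.34-fold (0.43 ± 0.0745, adjusted p = 0.00185) and 1.29-fold (0.37 ± 0.0743, adjusted p = 0.00539). Each of the 3 stood above wild type on all 9 mutant arrays, for AOS by only 9.84 against 9.82. JAZ1, a repressor of the pathway, rose 1.37-fold (0.46 ± 0.119, adjusted p = 0.024), and lost its call without any 1 wild-type array (up to 0.11) or the line gra3-D (0.0872). The median of the list was 0.024, so the remaining members stood close to 0.

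Of 19 salicylate defence genes 2 were higher and 0 lower. AT5G10760, also AED1, had 4.86, 4.52 and 4.76 in wild type and 5.01 to 6.75 (median 5.39) in the lines (0.88 ± 0.262, adjusted p = 0.0455), and BGL2 (AT3G57260), a pathogenesis-related glucanase gene, had 4.51, 4.35 and 4.93 against 4.8 to 5.44 (median 5.08; 0.50 ± 0.115, adjusted p = 0.0116). Both start close to background, so these sizes are lower bounds. The call of AED1 was lost without any 1 of 8 arrays (the 3 wild-type and 3 gra1-D arrays and gra3-D replicates 2 and 3; up to 0.169) and under 3 other settings (up to 0.096), and that of BGL2 (AT3G57260) without WT replicate 1 or 2 (up to 0.0859). The count was 0 without either of these arrays and 4 without the line gra3-D or gra3-D replicate 1.

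Of 10 genes of the early response to touch and wounding, only TCH2 (AT5G37770), a calmodulin-like gene, was called. It had 6.59, 6.53 and 6.43 against 6.66 to 7.63 (median 7.34) and rose 1.66-fold (0.73 ± 0.145, adjusted p = 0.00461). Of 17 oxidative stress genes 2 were higher (11.8%) and 1 lower (5.88%), against 2.36% and 7.16% over all loci outside. The catalase gene CAT3 (AT1G20620) rose 1.36-fold (0.45 ± 0.0832, adjusted p = 0.00295) and the cytosolic superoxide dismutase gene CSD1 (AT1G08830) 1.25-fold (0.32 ± 0.0563, adjusted p = 0.00206). FSD3, a plastid superoxide dismutase gene, fell 1.27-fold (-0.34 ± 0.0863, adjusted p = 0.0193), a call lost without WT replicate 2 (0.128) or the line gra3-D (0.0533). None of these 4 genes overlapped between the groups. Of 40 glutathione transferase genes by name 4 were higher and 1 lower, GSTU1 (AT2G29490), which had 7.52, 7.18 and 7.46 against 6.23 to 7 and fell 1.75-fold (-0.81 ± 0.145, adjusted p = 0.00226). Without any 1 wild-type array, 1 or 2 of the 40 were higher.

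Flavonoid genes changed in both directions. Of 20 measured members 3 were higher and 2 lower. Beside PAP1, the anthocyanin glycosyltransferase gene UF3GT (AT5G54060) had 6.25, 6.26 and 5.99 in wild type and 6.43 to 7.68 (median 6.89) in the lines and rose 1.79-fold (0.84 ± 0.212, adjusted p = 0.0202). The phenylalanine ammonia-lyase genes at the entry of the pathway were lower: PAL2 (AT3G53260) fell 1.25-fold (-0.32 ± 0.0577, adjusted p = 0.0021) with no overlap, and PAL1 changed by -0.32 ± 0.0793 (adjusted p = 0.0192) with overlap. The call of UF3GT ended without any 1 wild-type array (up to 0.105), and that of PAL1 without WT replicate 1 or 3 (up to 0.13) or the line gra2-D (0.0621). Of the 20 members 1 was higher and 1 lower without WT replicate 1, and again without WT replicate 3.

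Nuclear genes for plastid gene expression and protein import were lower in several groups, and none of these groups held a higher gene. Of 16 genes named for the plastid transcriptionally active chromosome (PTAC), the protein complex that transcribes plastid DNA, 9 were lower and 0 higher, with a median log2 change of -0.25. PTAC12 (AT2G34640) had 8.82, 9.02 and 8.82 in wild type and 7.89 to 8.39 (median 8.23) in the lines and fell 1.6-fold (-0.68 ± 0.0716, adjusted p = 1.83e-05). PTAC15 (AT5G54180) fell 1.42-fold (-0.51 ± 0.103, adjusted p = 0.00512), PDE312, also PTAC10, 1.44-fold (-0.52 ± 0.104, adjusted p = 0.00456) and the DNA-binding protein gene WHY3 1.34-fold (-0.42 ± 0.0958, adjusted p = 0.0116). PTAC12 and WHY3 were separate from wild type, and the other 2 overlapped with it slightly. The call of WHY3 ended without WT replicate 2 (0.0708) and that of PDE312 without the line gra2-D (0.061). By centring on expressed loci 8 of the 16 were lower. The median log2 level of the 16 was 8.69, and of all loci outside at 8 to 10, 13.8% were lower. The pigment defective, import, FtsH and aminoacyl-tRNA synthetase groups below had median levels of 8.48, 8.83, 8.81 and 8.8. The embryo defective group stood at 7.73, and of all loci outside at 6 to 8, 8.02% were lower.

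Of 33 genes named for a pigment defective mutant 17 were lower and 0 higher (median -0.24), and of 225 genes named for an embryo defective mutant 51 were lower and 0 higher (median -0.12). Mutants of many genes in both groups fail in plastid function, and the groups share members with each other and with PTAC. PDE340 (AT5G08610) had 8.41, 8.47 and 8.39 against 7.24 to 7.89 (median 7.68) and fell 1.7-fold (-0.76 ± 0.0947, adjusted p = 9.22e-05). SCA3 (AT2G24120), which encodes a plastid RNA polymerase, had 7.44, 7.53 and 7.28 against 6.44 to 7.14 (median 6.9) and fell 1.45-fold (-0.53 ± 0.108, adjusted p = 0.00537). SVR1 (AT2G39140), a plastid rRNA-modifying enzyme gene, fell 1.31-fold (-0.39 ± 0.0621, adjusted p = 0.000833). In these 3 genes no mutant array reached the wild-type arrays. The lower counts were 8 of 33 and 23 of 225 without WT replicate 2, 10 and 33 without WT replicate 3, 8 and 32 without the line gra2-D, and 10 and 33 with centring on expressed loci.

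Of 26 genes named for the import machinery of the chloroplast envelope 8 were lower and 0 higher (median -0.14). At the inner membrane, TIC110 (AT1G06950) had 9.16, 9.28 and 9.26 against 8.48 to 8.99 (median 8.76) and fell 1.38-fold (-0.46 ± 0.0749, adjusted p = 0.00103), and TIC40 (AT5G16620) fell 1.3-fold (-0.38 ± 0.0685, adjusted p = 0.00216). At the outer membrane, the channel gene TOC75-III changed by -0.34 ± 0.0872 (adjusted p = 0.0222) and the receptor gene TOC33 by -0.32 ± 0.0781 (adjusted p = 0.0164). All 4 stood below wild type on all 9 arrays. The count was 2 of 26 without WT replicate 2, 4 without WT replicate 3 and 3 without the line gra2-D. The call of TOC75-III ended without WT replicate 2 or 3 (up to 0.112) or gra2-D (0.0708), and that of TOC33 without WT replicate 2 (0.11), without gra2-D and with the 9 mutant arrays as 1 group (up to 0.0839).

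Of 13 genes of the FtsH family, which includes membrane-bound proteases of plastids and mitochondria, 7 were lower and 0 higher (median -0.21). FTSH12 (AT1G79560) had 9.17, 9.24 and 9.24 against 8.36 to 8.96 (median 8.74) and fell 1.46-fold (-0.54 ± 0.0656, adjusted p = 7.03e-05). FTSH8 (AT1G06430), a thylakoid protease gene, had 10.1, 9.73 and 9.97 against 9.2 to 9.62 (median 9.42) and fell 1.43-fold (-0.51 ± 0.0799, adjusted p = 0.000729). FtsHi1 (AT4G23940) fell 1.28-fold (-0.36 ± 0.0623, adjusted p = 0.0018). FTSH11 (-0.245 ± 0.0715, adjusted p = 0.041) lost its call without any 1 of 7 arrays (WT replicates 1 and 2, gra1-D replicates 1 and 3, gra2-D replicate 2, and gra3-D replicates 1 and 2; up to 0.199) and under 5 other settings, both centrings among them (up to 0.0945). The count was 3 or 4 of 13 with either centring, with a further quantile normalization, without any 1 line, and without WT replicates 1 or 3, gra2-D replicate 2, or gra3-D replicates 1 or 2.

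Of 15 aminoacyl-tRNA synthetase genes 8 were lower and 0 higher (median -0.22). These enzymes load tRNAs for protein synthesis, and several serve plastids and mitochondria. OVA1 (AT3G55400) had 9.12, 9.1 and 9.17 in wild type and 8.42 to 8.85 (median 8.63) in the lines and fell 1.43-fold (-0.52 ± 0.0566, adjusted p = 2.72e-05). OVA6 (AT5G52520), a prolyl-tRNA synthetase gene, fell 1.34-fold (-0.42 ± 0.0537, adjusted p = 0.000109), the lysyl-tRNA synthetase gene ATKRS-1 (AT3G11710) 1.32-fold (-0.40 ± 0.0757, adjusted p = 0.0032) and OVA2 (AT5G49030) 1.31-fold (-0.39 ± 0.0635, adjusted p = 0.00104). The 4 genes did not overlap with wild type on any array, and the count of the group stayed between 6 and 10 under all alternatives.

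Genes of the photosynthetic apparatus itself did not follow. Of 20 measured photosynthesis genes 1 was lower and 0 higher, with a median log2 change of 0.0022, at a level where the arrays respond less. The 1 called gene was GAPB, a Calvin cycle enzyme gene (-0.21 ± 0.059, adjusted p = 0.0376), whose call was lost without any 1 of 9 arrays (all but gra1-D replicate 2, gra2-D replicate 1 and gra3-D replicate 3; up to 0.204) and under 4 other settings (up to 0.0921). By limma 0 of 13 chlorophyll synthesis genes were called, against 1 higher and 3 lower at an unadjusted p under 0.05. Of 73 loci encoded in the plastid genome 1 was higher and 2 lower (median -0.0017), and of 31 loci of the mitochondrial genome 3 were higher and 0 lower (median 0.083). Of these 6 organelle loci, which the gene table does not name, ATCG00360 fell 1.27-fold (-0.34 ± 0.0571, adjusted p = 0.00126) with no overlap.

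The calls of the other 5 organelle loci ended in places. ATCG00065 (0.26, adjusted p = 0.00959) lost its call without WT replicate 1 or 3 (up to 0.0679), without the line gra2-D and with the 9 mutant arrays as 1 group (up to 0.135). ATMG00660 (0.24, adjusted p = 0.0237) lost its call without WT replicate 1 or 3 (up to 0.107) or the line gra1-D (0.0559). ATCG00210 (-0.27, adjusted p = 0.0343), ATMG00070 (0.235, adjusted p = 0.0387) and ATMG00690 (0.27, adjusted p = 0.0404) lost theirs without any 1 of 6, 8 and 9 arrays (up to 0.212, 0.145 and 0.24), with WT replicates 1 and 2 among them each time, and under 5, 5 and 4 other settings. Without any 1 wild-type array 1 mitochondrial locus was higher.

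**Figure D4:**
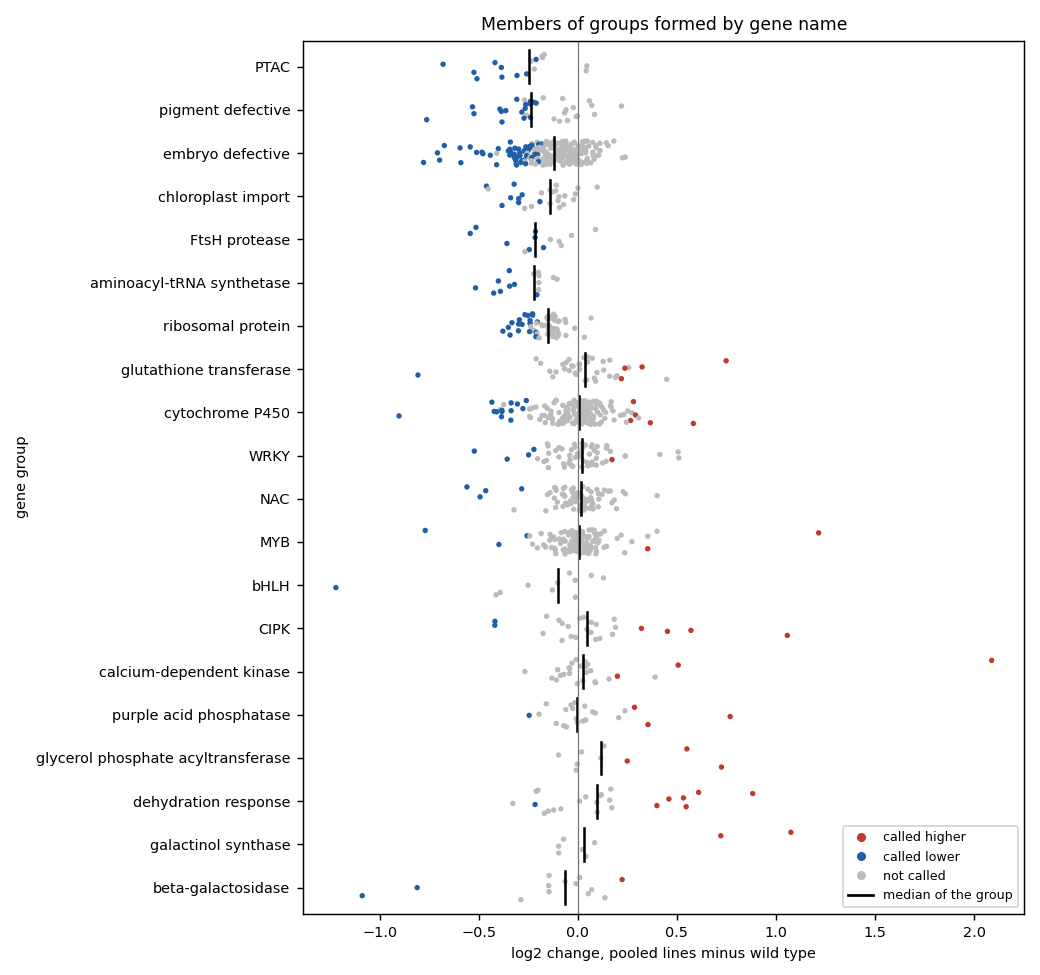
Log2 change of the pooled lines against wild type for each member of 20 groups formed by gene name after the values were seen, with called members in red (higher) and blue (lower) and the group median as a black bar. Of all loci outside, 7.16% were lower, and 13.8% of those at mean log2 values of 8 to 10. Blue points make up 56.2% of the PTAC, 51.5% of the pigment defective, 53.8% of the FtsH and 53.3% of the aminoacyl-tRNA synthetase members. Of the ribosomal protein members 31% are blue, and none of these rows holds a red point.

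Cytosolic ribosomal protein genes were lower as a list. Of 13 measured members 8 were lower and 0 higher, and 12 had changes below 0, with a median log2 change of -0.23. ATL5 (AT3G25520), which encodes ribosomal protein L5, had 11.3, 11.3 and 11.2 in wild type and 10.7 to 11 (median 10.9) in the lines and fell 1.28-fold (-0.35 ± 0.068, adjusted p = 0.00389). RPL23AA (AT2G39460) had 11.4, 11.5 and 11.4 against 10.9 to 11.2 (median 11.1) and fell 1.23-fold (-0.30 ± 0.058, adjusted p = 0.0039). The groups were separate for both. RPL23AB (-0.30 ± 0.0751, adjusted p = 0.0194) and P40, a gene of the small subunit (-0.29 ± 0.0805, adjusted p = 0.0296), were lower with calls that ended without WT replicate 1 or 2 (up to 0.0942 and 0.13) or the line gra3-D, and for P40 also without WT replicate 3 or gra3-D replicate 2 and with centring on expressed loci. The count was 4 without WT replicate 1, 2 without WT replicate 2, 5 without gra3-D replicate 2, 5 and 4 without the lines gra2-D and gra3-D, and 5 with centring on expressed loci.

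Over the 58 genes with a ribosomal protein name, which hold cytosolic and organelle members and most of the list above, 18 were lower and 0 higher, and 56 had changes below 0 (median -0.15). Their median log2 level was 11.3, and of all loci outside at 10 to 12, 18.4% were lower. AT2G36170, also RPL40A, had wild-type values of 10.3 to 10.5 against 9.8 to 10.1 (median 10) and fell 1.26-fold (-0.33 ± 0.0632, adjusted p = 0.00335). PSRP5, a plastid ribosomal protein gene, fell 1.3-fold (-0.38 ± 0.111, adjusted p = 0.0412). Both were separate from wild type. The call of PSRP5 was lost without any 1 of 7 arrays (the 3 wild-type arrays and replicates 1 and 2 of gra1-D and gra2-D; up to 0.199), with either centring and without the line gra2-D (up to 0.0813). The count was 7 without WT replicate 1, 5 without WT replicate 2, 11 without gra2-D or gra3-D and 10 with centring on expressed loci. Ribosomal proteins come from families of near-identical copies, and probes of 1 copy may also bind another.

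By limma 0 of 20 measured 26S proteasome genes were called (3 lower at an unadjusted p under 0.05), with a median log2 change of -0.046. None of 10 heat shock genes was called (1 higher unadjusted), and none of 8 genes of protein folding in the endoplasmic reticulum (3 higher unadjusted, and 1 called under either centring), which all had changes above 0 with a median of 0.10.

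The cell cycle lists differed in their share of lower genes, which was highest for D-type cyclins (71.4%, against 7.16% over all loci). D-type cyclins are the partners of kinases that open the G1 phase. Of 8 listed, 7 were measured outside the stretch. Of these 7, 5 were lower and all had changes below 0, with a median of -0.28. Any D-type cyclin inside the stretch is not counted here. CYCD3;3 (AT3G50070) had 7.41, 7.1 and 7.22 in wild type and 6.52 to 6.94 (median 6.85) in the lines and fell 1.37-fold (-0.45 ± 0.0676, adjusted p = 0.000532). CYCD3;2 (AT5G67260) had 9.53, 9.57 and 9.53 against 8.85 to 9.38 (median 9.27) and fell 1.29-fold (-0.36 ± 0.0535, adjusted p = 0.000436). The groups were separate for both, and CYCD3;2 also differed among the lines, with -0.275 for gra1-D, -0.61 for gra2-D and -0.21 for gra3-D (adjusted p = 0.00842).

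CYCD1;1 fell 1.29-fold (-0.37 ± 0.0823, adjusted p = 0.00922), with no overlap, and CYCD2;1 changed by -0.28 ± 0.0862 (adjusted p = 0.0495), with overlap. The call of CYCD1;1 ended without WT replicate 2 (0.0676), and that of CYCD2;1 without any 1 of 9 arrays (all but WT replicate 2, gra1-D replicate 1 and gra2-D replicate 3; up to 0.227) and under 6 other settings (up to 0.131). The count of D-type cyclins was 3 without any 1 wild-type array, without any 1 of gra1-D replicates 2 and 3, gra2-D replicate 1 and gra3-D replicates 2 and 3, without the line gra1-D or gra3-D and with either centring.

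Of 16 mitotic genes 7 were lower and 0 higher (median -0.19). PLE (AT5G51600), a microtubule-bundling protein gene of the dividing cell, had 6.56, 6.69 and 6.71 against 5.96 to 6.51 (median 6.18) and fell 1.38-fold (-0.47 ± 0.0777, adjusted p = 0.00126). The kinesin gene HIK (-0.50 ± 0.132, adjusted p = 0.0251), the Aurora kinase gene AUR2 (-0.42 ± 0.0862, adjusted p = 0.00623) and the B-type cyclin gene CYCB2;4 (-0.35 ± 0.0749, adjusted p = 0.00762) were lower as well. PLE and CYCB2;4 were separate from wild type, and HIK and AUR2 overlapped with it. The count was 1 without WT replicate 2, 3 without WT replicate 3, 4 without the line gra3-D and 4 with centring on expressed loci. Without WT replicate 2 the calls of HIK, AUR2 and CYCB2;4 ended (up to 0.138, 0.0518 and 0.0568), and that of HIK also without WT replicate 3, without gra2-D or with the 9 mutant arrays as 1 group (up to 0.16).

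Of 20 DNA replication genes 1 was lower, E2F3 (AT2G36010), a factor that starts S phase genes (-0.38 ± 0.093, adjusted p = 0.0163), whose call ended without WT replicate 2 or 3 (up to 0.115). Of 13 histone genes only HIS1-3, a stress-related linker histone gene, was lower (-0.62 ± 0.15, adjusted p = 0.0163), a call lost without WT replicate 1 or 3 (up to 0.106). Lower shares were 5% for DNA replication and 7.69% for histone genes, against 7.16% over all loci outside. By limma 0 of 10 CDK inhibitor and endoreduplication genes were called, against 1 higher and 4 lower unadjusted, and 0 of 10 DNA damage response genes, against 2 lower unadjusted.

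Of 32 regulators of leaf size outside the stretch 3 were lower (9.38%, against 7.16% over all loci outside) and 0 higher, with a median of 0.012. ATG2 (AT3G51800), also EBP1, which promotes cell growth, had 10.4, 10.3 and 10.4 in wild type and 9.77 to 10.1 (median 9.89) in the lines and fell 1.38-fold (-0.46 ± 0.0685, adjusted p = 0.000477), with no overlap. CYP78A5, which prolongs organ growth, changed by -0.43 ± 0.107 (adjusted p = 0.0176), and TCP4, which ends cell division in leaves, by -0.22 ± 0.0569 (adjusted p = 0.0247). AN3 (AT5G28640), a coactivator that keeps leaf cells dividing, had 6.71, 6.9 and 6.7 against 6.22 to 6.97 (median 6.74), with a change of -0.083 ± 0.102 (adjusted p = 0.712). The calls of CYP78A5 and TCP4 ended without WT replicate 2 or 3 (up to 0.117 and 0.128), that of CYP78A5 also without gra1-D or gra2-D (up to 0.0528), and that of TCP4 also with either centring and without gra3-D (up to 0.0928). No gene of 15 leaf polarity genes was called by limma, at an unadjusted p under 0.05 either.

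Of 17 cytokinin genes 5 were lower and 0 higher (median -0.11), among them type-A response regulators, which cytokinin induces and which dampen its signal. ARR6 (AT5G62920) had 7.7, 7.53 and 7.37 in wild type and 6.69 to 7.21 (median 7.08) in the lines and fell 1.42-fold (-0.51 ± 0.0881, adjusted p = 0.00171), with no overlap. ARR15 (AT1G74890) had 6.15, 6.18 and 6.08 against 5.19 to 6.08 (median 5.57) and fell 1.48-fold (-0.57 ± 0.0955, adjusted p = 0.00134), with groups that just overlapped. RR5, also a type-A regulator gene, changed by -0.45 ± 0.112 (adjusted p = 0.0192), and IPT3, which makes cytokinin, by -0.35 ± 0.079 (adjusted p = 0.00976). The call of RR5 ended without WT replicate 1 or 2 (up to 0.111) or the line gra1-D (0.0642) and that of IPT3 without WT replicate 1 (0.0751), where 3 of 17 genes were lower.

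Of 25 auxin genes 2 were lower (8%, against 7.16% over all loci outside) and 0 higher (median -0.095). DFL1 (AT5G54510), which conjugates auxin to amino acids, had 9.89, 9.56 and 9.73 against 8.49 to 9.41 (median 9.06) and fell 1.6-fold (-0.68 ± 0.138, adjusted p = 0.00553). IAA1 (AT4G14560), an auxin-response repressor gene, changed by -0.61 ± 0.118 (adjusted p = 0.00389) but differed among the lines (adjusted p = 0.0414), with -0.40 for gra1-D, -1.06 for gra2-D and -0.37 for gra3-D. Its pooled call ended without the line gra2-D and in both fits that let the spread between lines enter the error (up to 0.109). With the replicate number as a block, and also without gra3-D replicate 1 or the line gra3-D, 4 of the 25 were lower.

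Of 8 brassinosteroid genes 2 were lower and 0 higher. BR6OX2 (AT3G30180), which makes brassinolide, had 8.28, 8.1 and 8.07 against 7.17 to 7.72 (median 7.47) and fell 1.63-fold (-0.71 ± 0.101, adjusted p = 0.000339). CPD (AT5G05690), an earlier enzyme gene of the pathway, fell 1.26-fold (-0.34 ± 0.0728, adjusted p = 0.00781), a call lost without WT replicate 1 (0.0604). Of 15 gibberellin genes 2 were higher and 0 lower. GA3OX1 (AT1G15550), which makes active gibberellin, had 7.52, 7.31 and 7.3 against 7.89 to 8.68 (median 8.19) and rose 1.79-fold (0.84 ± 0.101, adjusted p = 7.03e-05). RGL1, a DELLA repressor gene of the same pathway, changed by 0.41 ± 0.0895 (adjusted p = 0.00911), with a call lost without WT replicate 3 (0.0667). No mutant array of BR6OX2, CPD or GA3OX1 reached the wild-type arrays. By limma 0 of 14 ethylene genes were called, against 1 higher and 2 lower unadjusted.

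Of 20 circadian clock genes 2 were lower and 0 higher (median -0.17), RVE1 and its relative RVE2 (AT5G37260). The lower share was 10%, against 7.16% over all loci outside. RVE2 lay close to background in both groups, with 4.84, 4.7 and 4.93 against 4.3 to 4.58 (median 4.43), so the size of its change (-0.38 ± 0.0698, adjusted p = 0.00263) is uncertain. With the replicate number as a block 5 clock genes were lower. With the test limited to loci whose mean log2 value reached 6, neither RVE1 nor RVE2 was in the test and no clock gene was lower.

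Of 19 light and shade signalling genes 2 were higher (10.5%) and 1 lower (5.26%), against 2.36% and 7.16% over all loci outside. HFR1 (AT1G02340), a factor that limits shade responses, had 6.88, 6.16 and 6.74 against 6.89 to 7.62 (median 7.38) and rose 1.59-fold (0.67 ± 0.153, adjusted p = 0.0114). PIF4, a growth-promoting factor gene, changed by 0.27 ± 0.0707 (adjusted p = 0.0235), and ELIP2, a light stress protein gene, by -0.40 ± 0.0899 (adjusted p = 0.0111). HFR1 and PIF4 were separate from wild type and ELIP2 was not. These calls ended without WT replicate 2 (HFR1, 0.08), without WT replicate 2 or 3 (PIF4, up to 0.139, also without gra2-D) and without WT replicate 1 or 3 (ELIP2, up to 0.067).

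Of 22 flowering time genes 2 were higher and 3 lower. AGL20 (AT2G45660), also SOC1, which promotes flowering, had 7.17, 6.95 and 6.86 against 5.85 to 7.03 (median 6.54), an overlap, and changed by -0.46 ± 0.122 (adjusted p = 0.0247). SPL3, which promotes the adult phase, changed by -0.44 ± 0.107 (adjusted p = 0.0168), and its relative SPL4 by -0.35 ± 0.0628 (adjusted p = 0.00224), of uncertain size since both groups lay close to background. The call of AGL20 ended without WT replicate 1 or 2 (up to 0.141), without gra2-D and in both fits with the spread between lines in the error (up to 0.151), and that of SPL3 without WT replicate 1 or 3 (up to 0.0753) or gra2-D (0.117). Without WT replicate 1 the list held 1 lower gene, and 0 were higher without any 1 wild-type array.

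Carbohydrate, wall and surface genes were called in both directions. Higher were 8.33% of starch and sucrose and 4.76% of cell wall loosening genes, against 2.36% over all loci outside. Lower were 4.17% of starch and sucrose, 7.69% of sugar starvation, 5.26% of wax and cutin and 14.3% of cell wall loosening genes, against 7.16%. Of 24 starch and sucrose genes 2 were higher and 1 lower: the starch debranching gene ISA3 (AT4G09020) changed by 0.40 ± 0.0948 (adjusted p = 0.0148), RCP1, also MEX1, the maltose exporter gene, by 0.27 ± 0.061 (adjusted p = 0.0115), and QQS, described below, was lower. Of 13 sugar starvation genes only bZIP2 was lower (-0.235 ± 0.0598, adjusted p = 0.0213). Of 19 wax and cutin genes only LACS1, an acyl-CoA synthetase gene of wax synthesis, was lower (-0.35 ± 0.0725, adjusted p = 0.00648). The calls of ISA3 (0.101) and RCP1 ended without WT replicate 1, that of RCP1 also without WT replicate 2 (up to 0.0677) and both without gra2-D. The call of bZIP2 ended without WT replicate 1 or 2 (up to 0.128), without gra1-D and with centring on expressed loci, and that of LACS1 without WT replicate 2 (0.0529), without gra2-D and with the spread between lines in the error (up to 0.115).

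Of 21 genes of cell wall loosening 1 was higher and 3 lower. EXPA16 (AT3G55500), an expansin gene, had 5.32, 5.05 and 5.24 against 4.37 to 4.89 (median 4.72) and fell by at least 1.45-fold (-0.54 ± 0.0949, adjusted p = 0.00195). XTH19, a xyloglucan-remodelling enzyme gene, changed by 1 ± 0.304 (adjusted p = 0.0491), EXPA10 by -0.41 ± 0.12 (adjusted p = 0.0403) and EXPA5 by -0.22 ± 0.0618 (adjusted p = 0.0365). The calls of the last 3 were lost without any 1 of 9, 8 and 9 arrays (up to 0.199, 0.251 and 0.129), WT replicate 2 among them each time, and under 3 or 4 other settings. Of 13 beta-galactosidase genes by name 1 was higher and 2 lower. Beside BGAL4 this was BGAL1 (AT3G13750), which had 10.7, 10.9 and 11 against 9.82 to 10.4 (median 10) and fell 1.75-fold (-0.81 ± 0.1, adjusted p = 9.06e-05).

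Of 25 genes of silencing and chromatin only CMT2, a DNA methyltransferase gene, was higher (0.235 ± 0.0703, adjusted p = 0.0462), and its call was lost without any 1 of 9 arrays (all but gra1-D replicate 2, gra2-D replicate 1 and gra3-D replicate 2; up to 0.192) and under 6 other settings. By limma 0 of 13 sulfur, 14 aliphatic glucosinolate and 7 indole glucosinolate genes were called, against 2, 2 and 0 higher and 0 lower at an unadjusted p under 0.05. Of 58 WRKY transcription factor genes by name 1 was higher (1.72%) and 4 lower (6.9%). Among 79 NAC genes 0 were higher and 4 lower (5.06%). Of 120 MYB genes 2 were higher (1.67%) and 3 lower (2.5%), and of 11 bHLH genes 0 were higher and 1 lower (9.09%). Of 174 cytochrome P450 genes 5 were higher (2.87%) and 13 lower (7.47%), and 10 were higher with centring on expressed loci. Over all loci outside the shares were 2.36% higher and 7.16% lower. Wild-type means lay under 5 for 37 WRKY, 52 NAC, 88 MYB and 113 cytochrome P450 genes. Among all loci outside with a mean log2 value under 5, 1.31% were lower.

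Markers of cell types were called in the stomatal lineage, vascular and shoot meristem lists. Of stomatal lineage markers 11.1% were higher and 11.1% lower, and of vascular markers 16.7% were lower. Over all loci outside the shares were 2.36% higher and 7.16% lower, and these lists are small. Of 18 stomatal lineage markers 2 were higher and 2 lower. SDD1 (AT1G04110), a protease gene that limits stomatal number, had 6.79, 6.84 and 6.93 in wild type and 7.12 to 7.65 (median 7.35) in the lines and rose 1.44-fold (0.53 ± 0.0725, adjusted p = 0.000225). FLP (AT1G14350), a MYB factor that ends guard mother cell division, had 7.12, 6.5 and 6.61 against 5.65 to 6.24 (median 5.99) and fell 1.71-fold (-0.77 ± 0.14, adjusted p = 0.00245). Both were separate from wild type. EPF2, a peptide gene of early lineage cells, changed by 0.38 ± 0.101 (adjusted p = 0.0273) and HT1, a guard cell kinase gene, by -0.24 ± 0.0673 (adjusted p = 0.0325). The call of EPF2 ended without WT replicate 1 or 2 (up to 0.138) or gra2-D (0.0681), and that of HT1 without any 1 of 8 arrays (the 3 wild-type arrays, replicates 1 and 2 of gra1-D and gra2-D, and gra3-D replicate 2; up to 0.115) and under 7 other settings (up to 0.181).

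Of 12 vascular markers 2 were lower and 0 higher (median -0.11), the secondary wall cellulose synthase gene IRX1 (-0.39 ± 0.105, adjusted p = 0.0272) and the phloem sucrose transporter gene SUC2 (-0.24 ± 0.0592, adjusted p = 0.0167). The median level of the list ran from 6.16 to 6.44 over the wild-type arrays and from 5.99 to 6.28 over the mutant arrays. Of 9 shoot meristem markers only CLV1 was higher (0.22 ± 0.0657, adjusted p = 0.0491), which lost its call when any array but WT replicate 3 was left out (up to 0.262) and under 5 other settings. The calls of IRX1 and SUC2 ended without WT replicate 1, without WT replicate 2 (IRX1) or 3 (SUC2), with either centring and without 1 line (gra1-D for IRX1, gra2-D for SUC2), with adjusted p up to 0.167 and 0.0843. By limma 0 of 12 trichome, 12 root, 8 flower and 11 seed markers were called, against 2, 0, 0 and 0 higher and 0, 0, 1 and 0 lower unadjusted. The part of cell type shifts in the calls above was not tested.

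The pooled change hides opposite or single-line changes for a small number of loci. A test of the 3 lines among themselves, which uses no wild-type array in its contrast, called 92 of the 20014 loci (0.46%) at an adjusted p under 0.05. Of the 1906 loci called in the pooled comparison 38 also differed among the lines. The count of 92 was 43 without gra2-D replicate 1 or without gra2-D replicate 3, and 3 without the whole line gra2-D.

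QQS (AT3G30720), a gene found only in Arabidopsis that affects starch content, had 9.49, 9.44 and 9.05 in wild type. The mutant arrays ran from 6.71 to 10.3, with all gra2-D arrays above wild type and all gra1-D and gra3-D arrays below it. Its log2 change was -2.07 for gra1-D, 0.91 for gra2-D and -2.49 for gra3-D (adjusted p = 1.72e-08 among the lines), so the pooled value of -1.22 describes no line. CNGC12 (AT2G46450), a cyclic nucleotide-gated channel gene, stood at -2.56 for gra1-D, -0.16 for gra2-D and -0.13 for gra3-D (adjusted p = 3.11e-07 among the lines).

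MAF5 (AT5G65080), a flowering repressor of the FLC family, had 3.68, 3.69 and 3.72 in wild type and stood at -0.0044 for gra1-D, 1.36 for gra2-D and 0.096 for gra3-D (adjusted p = 0.000266 among the lines). AT1G43590, a pseudogene in the gene table, stood at 1.12, -0.25 and 0.68 (adjusted p = 4.31e-05), and AT5G60610 at -0.087, 0.96 and -0.13 (adjusted p = 2.72e-06). The last 3 lie close to background in wild type and in the pooled lines, so the sizes of their changes are uncertain. The pooled calls of all 5 loci ended with the 9 mutant arrays as 1 group and with line as a random block, those of CNGC12 and AT1G43590 also without gra1-D and those of MAF5 and AT5G60610 also without gra2-D. Over these settings the adjusted p reached 0.417 for QQS, 0.522 for CNGC12, 0.373 for AT1G43590, 0.751 for MAF5 and 0.671 for AT5G60610. The call of MAF5 also was lost without any 1 of 5 arrays (the 3 wild-type arrays, gra1-D replicate 1 and gra2-D replicate 2; up to 0.106) and that of AT5G60610 without WT replicate 1 or 2 (up to 0.152).

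**Figure D5:**
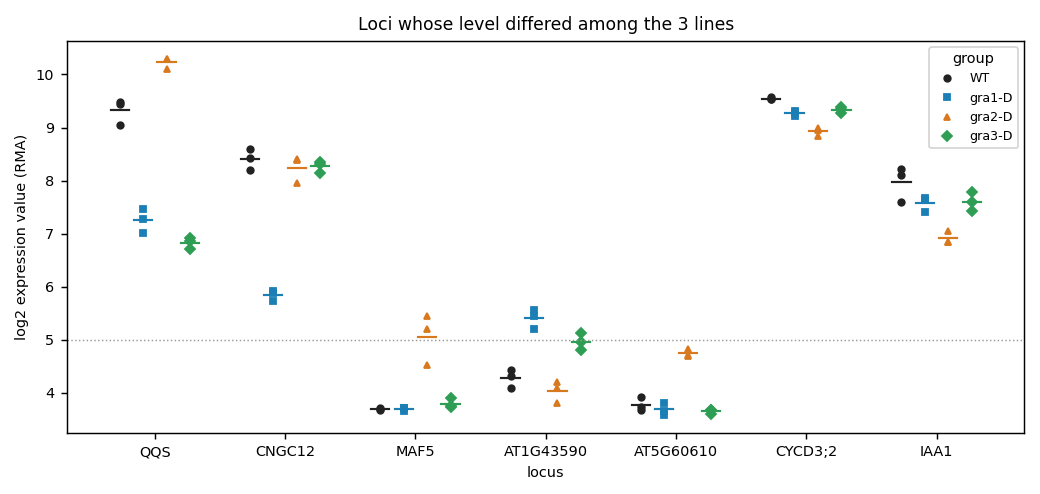
Log2 expression values on each array (points) and group means (bars) of 7 named loci that differed among the lines. QQS is above wild type in gra2-D and below it in gra1-D and gra3-D, CNGC12 is low in gra1-D alone, and MAF5 and AT5G60610 are high in gra2-D alone.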

How the data were processed

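The authors deposited log2 expression values, made with RMA per the submitters' processing notes (version not stated), as 1 table of 20777 loci on 12 arrays. Their range shows the log2 scale, the files name no build, and the probe-to-locus definition is not given in the sources used here. A gene table of assembly TAIR10.1 matched 20508 loci and gave 8945 a symbol.

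Means of the 4 groups were fitted with limma 3.58.1 (R 4.3.3, 8 residual and 5.28 prior degrees of freedom, median SE 0.0723). The pooled contrast weighted the 3 line means equally, and a moderated F test compared the lines. Both are two-sided, adjusted by Benjamini-Hochberg over all loci. The fit was tested on simulated data. Group means under 5 on the log2 scale count as close to background (limit set with the values known).

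Members, lists, tests and the naming rule were chosen with earlier results of these data known. The rule names the 12 largest rises and falls with separate groups, up to 4 called members of each list, the 5 called loci with the largest differences among lines, and AN3, CYCD3;2, CYCD3;3 and QQS. Groups by name (6 loci matched only through an alias or partner name were left out), organelle loci and AT4G31210 were added after values were seen. Replicate numbers paired the arrays only in part and were not a block. Arrays carry no read depth, so their number limits precision. A planned description of promoter motifs was not run, and 1 named gene is not reported here.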

Additional observations from a re-analysis of the deposited data

Results flagged for a closer look

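Among the 147 named loci outside the chromosome 4 end, the highest or lowest of the 9 mutant arrays stood far from the rest for 9 loci. The limit for such a gap is one that groups of independent values pass by chance in about 1 of 20 cases. Whether 9 of 147 differs from chance was not tested, and several of the 9 fell on the same array, gra2-D replicate 2. The 9 arrays come from 3 lines and were taken as 1 group here. Low values were those of gra1-D replicate 3 for GASA1 (7.94, median of the 9 arrays 8.95) and NCED3 (5.38, median 5.78), of gra1-D replicate 2 for DFL1 (8.49, median 9.06) and of gra3-D replicate 1 for AOS (9.84, median 10.1). The array gra2-D replicate 2 was low for RPL23AA (10.9), SCA3 (6.44), OVA2 (8.77) and AT2G36170 (9.8). The 1 high value was that of gra1-D replicate 1 for LOX2 (11.8, median 11.4).

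The level differed among the 3 lines for 7 named loci called in the pooled comparison, by limma's F test: QQS (adjusted p = 1.72e-08), CNGC12 (3.11e-07), AT5G60610 (2.72e-06), AT1G43590 (4.31e-05), MAF5 (0.000266), CYCD3;2 (0.00842) and IAA1 (0.0414).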

How the results depend on the processing

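The 12 largest rises and the 12 largest falls with separate groups kept direction and call under each alternative that tested them, of 24 in all. The limit to loci whose mean log2 value reached 6 left 6 of these 24 loci untested (PAP1, CIPK25, AT5G24240, AT3G62950, AT5G01870 and RVE1). Of 146 named called loci, 27 of them untested there, 72 kept the call wherever they were tested and 74 lost it under 1 or more, and the log2 change turned sign for 1, AT5G60610, which stood at -0.107 (adjusted p = 0.48) without the line gra2-D. Over 24 alternatives the count of higher loci moved by over 1.5 times from 472 with centring on expressed loci outside the stretch (792, chosen after the data were seen) and without gra2-D (276), and also without WT replicate 1, 2 or 3 (296, 309 and 307). The count of lower loci moved likewise from 1434 to 878 and 947, and to 813, 855 and 887 without these arrays, and the count of loci that differ among lines from 92 to 3 without gra2-D. Without 1 array the counts ran from 296 to 480 higher, from 813 to 1408 lower and from 43 to 88 among lines. With the replicate number as a block, 641 loci were higher, 1775 lower and 124 differed among lines, and the calls of NCED3 (adjusted p = 0.0615), AT5G10760 (0.053), CLV1 (0.053) and AT4G31210 (0.0581) ended. The pairing by number was not complete: deviations from the group means correlated above 0.1 in 13 of 18 pairs of arrays with equal numbers (range -0.234 to 0.539), against -0.42 to 0.377 in 36 other pairs. All 9 such pairs among wild type, gra1-D and gra2-D stood at 0.249 to 0.539, and those below 0.1 each held replicate 1 or 3 of gra3-D. The array gra3-D replicate 3 correlated with replicate 1 of wild type (0.377), gra1-D (0.275) and gra2-D (0.239). Replicate 1 of gra3-D stood at 0.085, 0.06 and 0.121 with replicate 3 of these groups. This is a hint from the data and not from the labels, and a changed order of arrays was not tested. The median SE of 0.0723 limits what could be called, and dim and very bright loci respond less.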
